A study of Mus musculus with 4 samples.

Results

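The transcripts described here are those of 10 myeloid C-type lectin genes, Clec4a1, Clec4a2, Clec4a3, Clec4b1, Clec4d, Clec4e, Clec4n, Clec7a, Clec12a and Clec5a, in mouse bone marrow-derived macrophages loaded with fatty acids. Their probe sets were taken by symbol in the platform annotation, and each of the 10 had 1 probe set of the 41345 on the array. The list was chosen with earlier results of these data known, so its counts beside all genes are descriptions and not independent evidence. All 10 were among the 13308 of 22180 genes whose mean log2 level was at or above 2.44, the 40th percentile over genes, and no lectin was below 2.61 on any array. The 4 arrays held macrophages of Hilpda flox/flox mice (called wild type) and of HilpdaΔMΦ littermates (called Hilpda knockout), each profiled at 12 h and at 24 h of exposure to 600 µM fatty acid on albumin, 1 part palmitate to 2 parts oleate. Marrow came from mice of 8 to 12 weeks and was grown for 7 days in L929-conditioned medium, which supplies CSF1, the growth factor of macrophages. Each array held pooled RNA of 3 samples, so there was 1 array per group and no replicate error within a group. The sources used here do not name the Cre driver of the macrophage deletion. Every group received fatty acids, so a difference between 12 h and 24 h does not separate the fatty acids from time in culture.

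C-type lectin receptors of myeloid cells bind sugars and lipids of microbes, and also products of dying cells, through an extracellular lectin-like domain. Activating members signal through an immunoreceptor tyrosine-based motif, either in their own tail or in the adaptors FcRγ (Fcer1g) and DAP12 (Tyrobp), to the kinase SYK and the scaffold CARD9, and so to NF-kB. Inhibitory members carry a motif called ITIM that recruits the phosphatases SHP-1 and SHP-2. Many of the genes lie together on mouse chromosome 6, in the Dectin-2 cluster (the Clec4 genes) and the Dectin-1 cluster (Clec7a and its neighbours).

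The cluster label covered 9 of the 10 genes. In the RefSeq gene table of GRCm38.p6, used for order only, Clec4a1, Clec4a3, Clec4b1, Clec4a2, Clec4n, Clec4d and Clec4e formed 1 run of 11 genes on chromosome 6. Clec12a and Clec7a were the ends of another run of 7 genes, after 223 intervening genes. Clec5a stood alone, 1705 genes before the Clec4 run, and is outside both clusters. The RefSeq promoter table held 9 of the 10 genes; Clec4n had no entry. The 250 bases before the annotated start are shown for 4 genes that were higher at 24 h than at 12 h and for Clec4d and Clec12a, which did not pass 1.5-fold between the times. Sequences are from RefSeq, build GRCm38.p6, written 5′ to 3′ on the strand of the gene. Capitals mark GAGGAA or its reverse complement TTCCTC, the core bound by PU.1, a transcription factor of myeloid cells.
Clec4a1, chr6:122921598-122921847, plus strand: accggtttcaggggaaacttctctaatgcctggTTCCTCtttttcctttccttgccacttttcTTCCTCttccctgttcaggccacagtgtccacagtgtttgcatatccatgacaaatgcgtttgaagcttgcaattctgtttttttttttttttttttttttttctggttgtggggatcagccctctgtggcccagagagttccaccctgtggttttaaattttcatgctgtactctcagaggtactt
Clec4a3, chr6:122952265-122952514, plus strand: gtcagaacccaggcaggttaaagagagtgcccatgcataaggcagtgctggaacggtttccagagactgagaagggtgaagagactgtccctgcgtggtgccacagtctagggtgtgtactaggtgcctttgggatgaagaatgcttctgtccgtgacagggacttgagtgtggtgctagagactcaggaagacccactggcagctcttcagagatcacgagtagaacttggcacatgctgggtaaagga
Clec4b1, chr6:123049712-123049961, plus strand: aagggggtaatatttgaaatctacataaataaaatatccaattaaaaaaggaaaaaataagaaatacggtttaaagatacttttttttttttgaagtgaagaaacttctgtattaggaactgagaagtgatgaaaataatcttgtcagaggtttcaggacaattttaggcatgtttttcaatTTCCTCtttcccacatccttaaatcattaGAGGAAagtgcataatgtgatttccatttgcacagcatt
Clec4a2, chr6:123122440-123122689, plus strand: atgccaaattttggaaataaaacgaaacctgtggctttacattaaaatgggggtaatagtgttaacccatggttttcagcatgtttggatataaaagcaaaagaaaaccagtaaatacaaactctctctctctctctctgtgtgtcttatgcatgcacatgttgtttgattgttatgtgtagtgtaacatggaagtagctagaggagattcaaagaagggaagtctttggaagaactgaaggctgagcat
Clec4d, chr6:123261857-123262106, plus strand: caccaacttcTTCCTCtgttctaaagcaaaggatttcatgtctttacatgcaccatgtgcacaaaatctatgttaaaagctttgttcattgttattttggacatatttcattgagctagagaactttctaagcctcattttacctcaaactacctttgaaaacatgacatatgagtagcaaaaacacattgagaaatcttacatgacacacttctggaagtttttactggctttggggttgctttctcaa
Clec12a, chr6:129349994-129350243, plus strand: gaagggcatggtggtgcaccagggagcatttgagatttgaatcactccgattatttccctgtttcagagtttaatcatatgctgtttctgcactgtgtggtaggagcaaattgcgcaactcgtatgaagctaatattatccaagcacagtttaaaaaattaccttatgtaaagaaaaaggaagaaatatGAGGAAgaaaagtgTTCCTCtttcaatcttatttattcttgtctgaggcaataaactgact
The PU.1 core was found on either strand in windows of 8 of the 9 genes, among them Clec4e, Clec5a and Clec7a, and in 23.3% of all 32851 promoter windows of the same length. It was absent from the window of Clec4a2. For Clec4a3 it lay before the second of 2 annotated starts and not in the window printed here. There Clec4a3 shared a run of 17 bases with Clec4a1, cctggTTCCTCtttttc, which began 222 bases before the start of Clec4a1 and 55 bases before that start of Clec4a3. This was the longest exact run shared by windows of any 2 of the lectins. The core was thus present both in genes that differed between the times and in genes that did not pass 1.5-fold. The C/EBP pattern TTGCNNAA was found for Clec12a and Clec4e (9.6% of all windows) and the AP-1 pattern TGANTCA for Clec12a alone (6.7%). The MAF pattern TGCTGAC (3.8%) was found for 0 of the 9. All patterns were searched on both strands. A match is a description of the letters in the window.

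As a check of the series, Pearson's r between any pair of arrays over all probe sets was 0.984 to 0.988, a description across probe sets. For Hilpda, the targeted gene, wild type read 5.93 and knockout 5.41 at 12 h, then 5.47 and 5.27 at 24 h. The difference was below 1.5-fold at both times. At 12 h, -0.51 lay just outside the central 95% of genes kept (-0.50 to 0.49). At 24 h, -0.20 lay inside that range (-0.66 to 0.62). The label was thus borne out only weakly at 12 h and not at 24 h. Whether the probe set lies in the deleted part is not known. The 8 macrophage markers were all kept by the level filter, with a median of 11.2 in wild type at 24 h and of 10.7 on each of the other 3 arrays. Of 8 neutrophil markers 0 were kept, and of 2 measured B cell markers 0. For an idea of noise at background signal, 1409 olfactory, vomeronasal and trace amine receptor genes were used. Of these, 5.04% and 5.89% differed by at least 1.5-fold, in either direction, between the times in wild type and knockout. Between the genotypes the shares were 4.47% at 12 h and 5.68% at 24 h. The shares of all genes past 1.5-fold given below are for 1 direction each.

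Between 12 h and 24 h, 5 lectins of the Clec4 run were higher by at least 1.5-fold (0.585 on the log2 scale) in both genotypes, and all 5 were higher by a wider margin in wild type. These were Clec4a1, Clec4a2 and Clec4a3, of the family of dendritic cell immunoreceptors (DCIR), Clec4b1 (DCAR), an activating relative, and Clec4n, which encodes Dectin-2, a receptor for fungal mannans. In wild type they were 5 of 10 lectins higher, against 4.71% of all genes kept, and 0 lower (4.01% of all genes). In knockout 6 of 10 were higher, the same 5 and Clec7a, against 3.06% of all genes, and 0 were lower (3.25%). The median difference of the 10 lectins was 0.83 in wild type and 0.68 in knockout, beside -0.01 and 0.00 over all genes kept. With 1 array per group these differences were not tested by themselves, and the list was chosen with earlier results of these arrays known.

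Clec4a1, which encodes DCIR4, had the widest difference of the 10 in wild type. At 12 h it read 6.86 (log2) in wild type against 6.98 in knockout, and at 24 h 9.67 against 8.30. Both 24 h arrays were above both 12 h arrays, and the wild-type 24 h array was the highest. The difference between the times was 2.81 in wild type, or 7.03-fold, and 1.32 in knockout, or 2.49-fold. Only 4 of the 13308 genes had a wild-type difference as high as 2.81, itself included. In knockout, 27 genes had a difference as high as its 1.32 there.

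Clec4a3 (DCIR3) lay next to it on the chromosome and had the same order of arrays at 24 h. Its levels were 7.17 and 7.12 at 12 h in wild type and knockout, and 9.22 and 8.46 at 24 h. That is a difference of 2.04 in wild type (4.12-fold) and 1.34 in knockout (2.52-fold).

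Clec4a2 encodes DCIR itself, an inhibitory receptor with an ITIM, and Clec4b1 encodes DCAR, which signals through FcRγ. Clec4a2 was at 3.995 and 4.23 at 12 h and at 5.37 and 5.002 at 24 h in wild type and knockout, a difference between the times of 1.37 and 0.78. Clec4b1 was at 2.70 and 2.90 at 12 h and at 3.87 and 3.75 at 24 h, a difference of 1.17 and 0.85. Its 12 h levels were close to the level filter. The Clec4a and Clec4b genes are close relatives, and an array may mix their signals, which was not tested.

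Clec4n was dim at 12 h and higher at 24 h in both genotypes. At 12 h it read 3.15 in wild type against 2.61 in knockout, and at 24 h 5.09 against 4.17. The difference between the times was 1.93 in wild type (3.82-fold) and 1.56 in knockout (2.94-fold), and knockout was the lower of the pair at each time. The knockout 12 h level was as low as that of genes the filter left out, such as the neutrophil marker Ly6g at 2.63 on that array, so the fold in knockout is uncertain.

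The other 2 lectins of the run, at its far end, were not past 1.5-fold. Clec4d encodes MCL and Clec4e encodes Mincle, 2 partner receptors for the mycobacterial glycolipid trehalose dimycolate. Clec4d was bright on every array, at 10.1 and 10.2 at 12 h and 10.5 and 10.4 at 24 h, a difference of 0.38 in wild type and 0.19 in knockout. Clec4e was at 6.24 and 6.17 at 12 h and 6.43 and 6.19 at 24 h, a difference of 0.20 and 0.02.

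Outside the Clec4 run the differences between the times were smaller than those of Clec4a1, Clec4a2, Clec4a3, Clec4b1 and Clec4n. They were not all smaller than those of Clec4d and Clec4e, which Clec7a exceeded in both genotypes. Clec7a, which encodes the beta-glucan receptor Dectin-1, was at 8.88 and 8.83 at 12 h and 9.37 and 9.42 at 24 h in wild type and knockout. Its difference of 0.48 in wild type lay below 1.5-fold and that of 0.59 in knockout just above, and with each array centred on its median the latter was 0.57, below the rule. Clec12a, which encodes the inhibitory receptor MICL, was at 10.96 and 10.89 at 12 h and at 11.11 and 11.10 at 24 h. Clec5a, which encodes the DAP12-coupled receptor MDL-1, was the 1 lectin that was lower at 24 h in both genotypes, at 5.56 and 5.50 at 12 h and 5.31 and 5.45 at 24 h, a difference of -0.25 and -0.06.

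**Figure D1:**
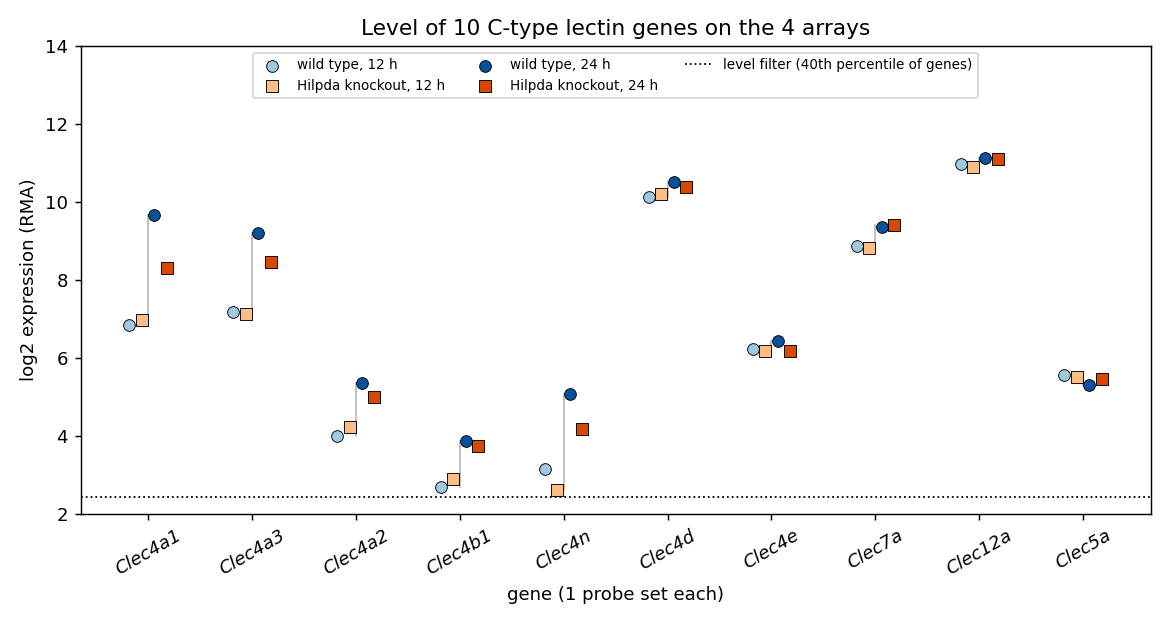
Log2 expression (RMA) of the 10 lectin genes on the 4 arrays, 1 point per array and 1 array (a pool of 3 samples) per group; grey lines span the range and the dotted line is the level filter at 2.44. For Clec4a1, Clec4a3, Clec4a2, Clec4b1 and Clec4n both 24 h points lie above both 12 h points with wild type on top. Clec4d and Clec12a have the same order of points within a narrow range, and the points of Clec4e and Clec5a also lie close together. For Clec7a both 24 h points lie above both 12 h points with knockout on top. Heights of different genes are not comparable, since each has its own probes.

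The neighbouring genes of the Clec4 run that are not in the list were looked at in the same way. Clec4a4, between Clec4a3 and Clec4b1, encodes DCIR2. It was at 2.33 and 2.32 at 12 h and at 3.18 in wild type but 2.41 in knockout at 24 h, so that 1 array, wild type at 24 h, stood above 2.44. Clec4b2 did not pass the level filter, at 1.94 to 2.41. In the run of Clec7a, Clec12b, Clec1b and Clec1a did not pass it either, with differences between the times of -0.40 to -0.08 in wild type and -0.12 to 0.29 in knockout. Clec9a had no probe set with a single symbol.

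**Figure D2:**
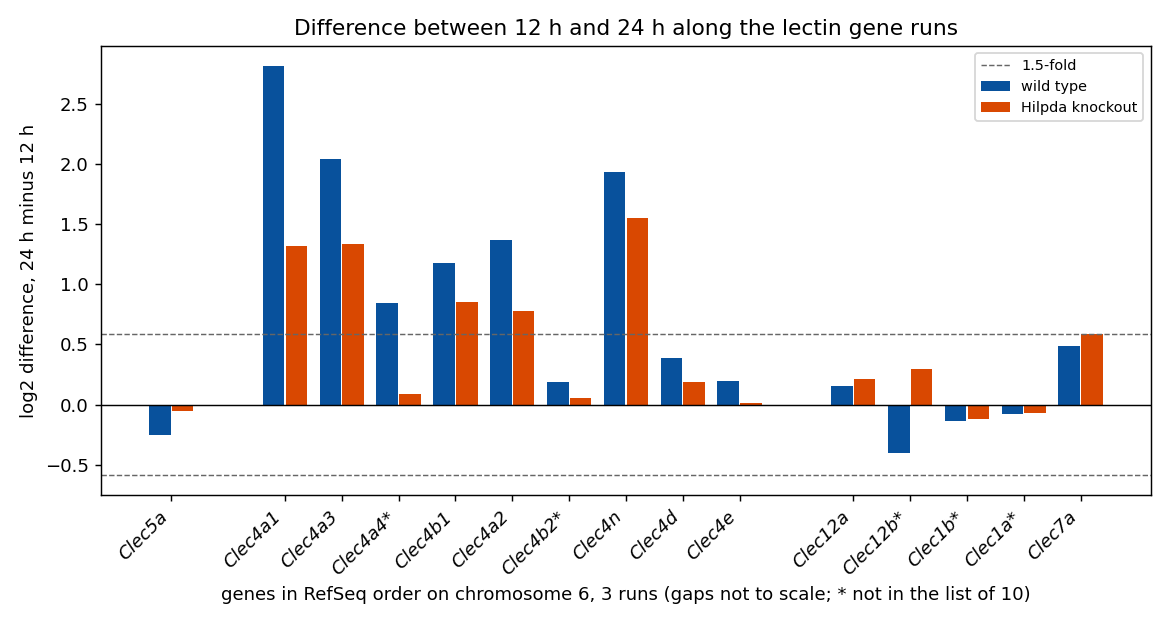
Log2 difference between 24 h and 12 h in wild type (blue) and Hilpda knockout (orange) for the lectins and the measured genes between them, in RefSeq order on chromosome 6; bars are differences of 2 arrays and dashed lines mark 1.5-fold. The bars past 1.5-fold in both genotypes lie from Clec4a1 to Clec4n, with Clec4a4 past it in wild type alone, Clec7a just past it in knockout alone and Clec4b2 in neither, and Clec4d and Clec4e at the end of the run are under it.

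A fit over all 4 arrays gave the only test. limma was fitted to all 13308 genes with genotype and time as added terms, which left 1 residual degree of freedom. With 1 array per group this residual is how far the genotypes' difference shifted with time, and it holds no replicate error. For time, 0 of 10 lectins had an adjusted p under 0.05 in limma, as had 0% of all genes. At an unadjusted p under 0.05 there were 6 of 10 lectins, against 13.2% of all genes. Clec4n was 1.74 ± 0.14 (SE, 4 arrays) higher at 24 h on the log2 scale with an adjusted p of 0.119 in limma. Clec4a3 followed at 1.69 ± 0.20 and Clec4b1 at 1.01 ± 0.14 (both adjusted p 0.149, limma). Then came Clec4a2 at 1.07 ± 0.18 (adjusted p 0.177, limma) and Clec4a1 at 2.06 ± 0.38 (adjusted p 0.191, limma). When the prior variance followed the level of the gene, 6 of 10 lectins passed in limma, against 4.06% of all genes. They were Clec4a1, Clec4a2, Clec4a3, Clec4b1, Clec4n and Clec7a, with adjusted p from 0.00229 for Clec4a3 to 0.0332 for Clec4b1. The call for time therefore depended on how limma modelled the variance and, for Clec4a3 (adjusted p 0.035 in limma among genes past the 60th percentile of level), on the level filter.

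Between the genotypes at 12 h, the lectins differed little. Of the 10, 0 were higher and 0 lower in knockout by 1.5-fold, against 1.5% and 1.4% of all genes kept. The median difference, knockout minus wild type, was -0.05 beside 0.00 over all genes. Clec4n was the member farthest from 0, at -0.54, where 248 genes were as low or lower and the central 95% of genes ended at -0.50. It was dim at 12 h, and for the olfactory and related receptor genes, at background signal, the central 95% spanned -0.576 to 0.572, which holds its difference. The remaining 9 lay between -0.07 (Clec12a) and 0.23 (Clec4a2).

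At 24 h, 3 of the 10 lectins were lower in knockout by at least 1.5-fold, against 3.51% of all genes, and 0 were higher (2.98%). Clec4a1 was at -1.37, or 2.59-fold lower, and 16 of 13308 genes were as low or lower. Clec4n was at -0.92, or 1.89-fold lower, and Clec4a3 at -0.76, or 1.69-fold lower, with 82 and 199 genes as low or lower. The central 95% of genes ran from -0.66 to 0.62, so all 3 lay outside it. Clec4a2 at -0.37, Clec4e at -0.25, and Clec4b1 and Clec4d, both at -0.12, were below 0 but inside that range. Clec12a at -0.01, Clec7a at 0.05 and Clec5a at 0.14, the members outside the Clec4 run, lay closest to 0 or above it. The median over the 10 was -0.18, beside 0.01 over all genes. This comparison and the wild-type difference between the times both use the wild-type 24 h array, so their values for Clec4a1, Clec4a3 and Clec4n are not separate evidence. In these bulk samples fewer cells of a type and less RNA per cell cannot be told apart.

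**Figure D3:**
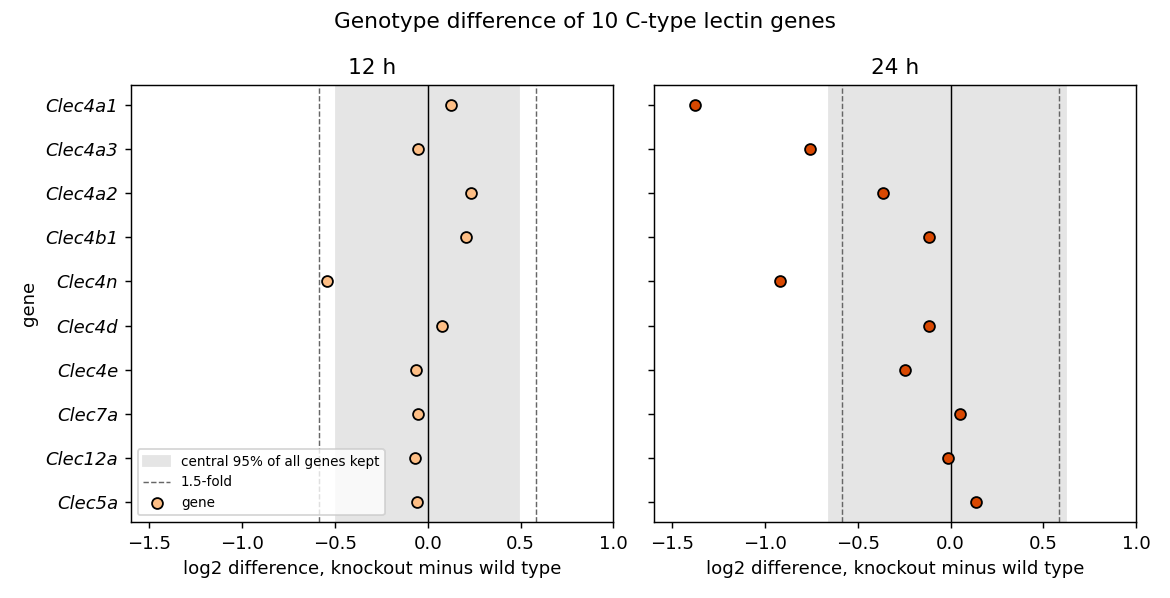
Log2 difference, knockout minus wild type, of the 10 lectins at 12 h (left) and 24 h (right), each point the difference of 2 arrays; grey marks the central 95% of the 13308 genes kept and dashed lines mark 1.5-fold. At 12 h Clec4n lies just outside the grey range at -0.54, though inside that of background receptor genes, and at 24 h Clec4a1, Clec4n and Clec4a3 lie left of it at -1.37, -0.92 and -0.76.

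The change of the genotype difference from 12 h to 24 h was widest for Clec4a1, at -1.50, where 22 genes were as low or lower. The central 95% of genes ran from -0.78 to 0.74, and Clec4a1 was the 1 of 10 lectins below it (2.5% of all genes by construction). Clec4a3 at -0.71 and Clec4a2 at -0.60 were inside, as was the neighbour Clec4a4 at -0.75. Among genes past the 60th percentile of level the range ended at -0.561, and 3 lectins, Clec4a1, Clec4a3 and Clec4a2, lay below it. Clec4n was at -0.38, since it was lower in knockout at both times. This quantity uses all 4 arrays and was not tested. For the genotype effect over both times, 0 of 10 lectins and 0% of all genes had an adjusted p under 0.05 in limma, and 1 lectin and 6.52% of genes had an unadjusted p under 0.05. That lectin was Clec4n, at -0.73 ± 0.14 (SE, 4 arrays), with an adjusted p of 0.76 in limma.

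Few genes of the signalling parts that these receptors share were past 1.5-fold. Fcer1g, the FcRγ adaptor gene, was at 11.8 to 11.9 on all 4 arrays, and Tyrobp, the DAP12 gene, at 10.5 to 10.6. Syk was at 9.39 and 9.44 at 12 h and 9.71 and 9.66 at 24 h, and Card9 at 6.50 to 6.79. Of 11 measured adaptors and kinases, 0 were past 1.5-fold between the times in either genotype, and 1 was lower in knockout at 12 h, the kinase gene Src at -0.70. Of 10 genes of the CARD9 module and NF-kB and of 4 ITIM phosphatase genes, 0 were past 1.5-fold in any of the 4 comparisons. Over all genes kept, from 1.4% to 4.71% were past 1.5-fold in each direction of a comparison. Counts near 0 are therefore usual for lists this short. The medians of these 3 lists lay between -0.21 and 0.07 in all comparisons.

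Other C-type lectins were a mixed group. Of 26 listed, 25 had a probe set with a single symbol and 12 were kept by the level filter. In wild type 6 of the 12 were higher at 24 h (4.71% of all genes), among them Mrc1, the mannose receptor gene, at 3.19, and 2 were lower (4.01%). In knockout 1 was higher (3.06% of all genes), Mrc1 at 2.39, and 1 lower (3.25%), Olr1, the gene of the oxidised LDL receptor LOX-1, at -0.75. In knockout against wild type at 24 h, 2 of the 12 were lower (3.51% of all genes), the collagen receptor gene Mrc2 at -0.65 and Clec4a4, and 0 were higher (2.98%). Clec4a4 passed the level filter only through the wild-type 24 h array, so its place among those counted is set by the filter.

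Products known to be induced through these receptors lay on both sides of 0. Of 10 kept of 15, 0 differed by 1.5-fold between the genotypes at 12 h (1.5% of all genes were higher and 1.4% lower). At 24 h 2 of the 10 were higher in knockout (2.98% of all genes), the chemokine gene Ccl4 at 1.05 and the transcription factor gene Egr2 at 0.72, and 2 were lower (3.51%), Ptgs2, the cyclooxygenase 2 gene, at -0.84 and Il1b, the interleukin 1 beta gene. Il1b read 2.39, 2.32 and 2.59 on the other arrays against 4.07 in wild type at 24 h, so it passed the filter through that array and the size of its difference is uncertain. Of 9 kept transcription factor genes of myeloid cells, Klf4 at -0.71 was lower (3.51% of all genes) and Batf at 0.66 higher (2.98%) in knockout at 24 h. Irf4 at 0.65 and Maf at 1.11 were higher at 24 h than at 12 h in wild type (4.71% of all genes) and at 0.09 and 0.47 in knockout. Between the times in knockout, 0 of the 9 were higher (3.06%) and Klf4 at -0.84 was lower (3.25%). Irf4 and Maf were named after their values were seen.

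Markers of other cells were set beside the lectins. Of 9 stromal markers 7 were kept. The log2 of the summed linear values of all 9 was 9.25 for wild type against 8.73 for knockout at 12 h, and 10.1 against 9.27 at 24 h. This sum was lower in knockout at both times, as was Clec4n, and higher at 24 h in both genotypes. Of the 7, 5 were higher at 24 h in wild type (4.71% of all genes) and 3 in knockout (3.06%). In knockout 2 were lower at 12 h (1.4% of all genes), with a median of -0.56. All 7 were below 0 at 12 h, as were 6576 of the 13308 genes kept. At 24 h 4 were lower (3.51%), with a median of -0.82. The log2 sum over all 6 dendritic cell markers, 4 of them kept, was 5.87 and 5.75 at 12 h and 6.12 and 5.97 at 24 h. Over the 5 measured monocyte markers, 3 of them kept, it was 5.29, 5.36, 5.45 and 5.15 in the same order of times and genotypes. In knockout at 24 h, 1 of the 3 kept monocyte markers was lower by at least 1.5-fold (3.51% of all genes), the chemokine receptor gene Ccr2. The other kept ones, Plac8 and Treml4, were at -0.09 and -0.05. So was 1 of the 8 macrophage markers lower by that rule, the integrin gene Itgam. Against wild type at 24 h, 7 of the 8 macrophage markers were below 0 in knockout, with a median of -0.27. Of all 13308 genes kept, 6525 were below 0 there. Between the times in wild type, 7 of the 8 were above 0 (6537 of all genes kept), with a median of 0.27. These were the directions of Clec4a1 and Clec4a3. Both counts use the wild-type 24 h array and are not separate evidence. In knockout the median between the times was 0.02. The neutrophil sum lay between 5.12 and 5.19 on all arrays. The part of these cells, or of the wild-type 24 h array, in the lectin differences was not tested.

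The genes nearest in profile were sought for the 3 lectins of widest range, as the Euclidean distance between log2 levels centred on each gene's mean, over 4 arrays. With 4 points many genes can lie close, and all values share the same arrays. Nearest to Clec4a3 were Pilra, a paired immunoglobulin-like receptor gene, at a distance of 0.0834, Cd300e at 0.146 and Syn1 at 0.159. Pilra was at 3.84 and 3.73 at 12 h and 5.93 and 5.08 at 24 h in wild type and knockout. Clec4a1 was nearest to Nxpe5 (0.438), Ms4a4a (0.466) and Pilra (0.531), and Clec4n to Adm (0.201), Abca9 (0.209) and again Pilra (0.308). All 7 of these genes were highest on the wild-type 24 h array. The 3 lectins were highest there too, so this follows from choosing genes near them and is no separate result.

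**Figure D4:**
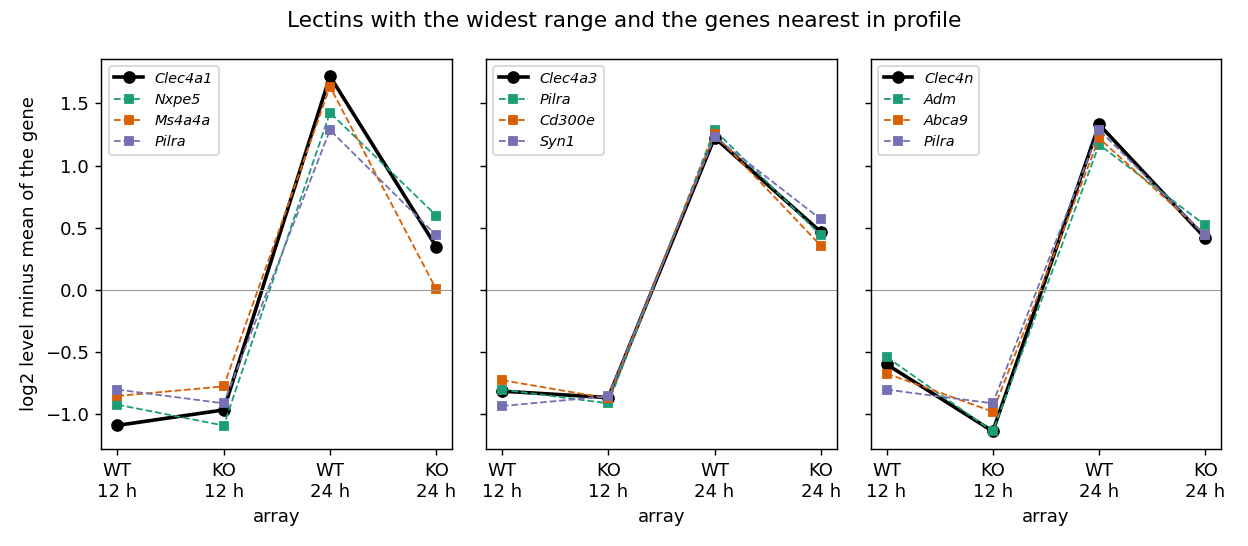
Log2 level minus the mean of the gene on the 4 arrays (WT, wild type; KO, Hilpda knockout) for Clec4a1, Clec4a3 and Clec4n in black and the 3 genes nearest in profile to each in colour; lines only join the points of 1 gene. Each profile peaks at wild type, 24 h, which follows from choosing genes near lectins that peak there, and Pilra appears in all 3 panels.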

How the data were processed

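RNA of mouse bone marrow-derived macrophages was measured on 4 Affymetrix whole-transcript arrays, 1 per genotype and time, grouped by the titles in the labels. The authors deposited 1 log2 value for each probe set and array, computed by RMA according to the submitters' processing notes (no version stated). RMA quantile-normalizes arrays, so a shift of all transcripts would not show. The log2 scale was read from the values (0.627 to 13.2). The sources used here do not name the authors' probe annotation. The table had 0 unmatched columns.

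Of 41345 probe sets, 23521 had 1 symbol, 1814 several and 16010 none. Only those with 1 symbol were used, and the brightest stood for a gene. All 10 lectins matched the RefSeq table by gene identifier. Differences between 2 arrays were described with a 1.5-fold rule, and limma 3.58.1 in R 4.3.3 with Benjamini-Hochberg adjustment over 13308 genes gave the only test. Steps were tested on simulated data. The number of arrays limits the precision. The pools' RNA integrity numbers exceeded 8.0 per the labels.

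The lectins, gene lists and promoter patterns were chosen with earlier results of these data known. Named genes were the 10 lectins, their neighbours, up to 4 members of each list past 1.5-fold between genotypes, Fcer1g, Tyrobp, Syk and Card9, and the 3 nearest profiles of the 3 lectins of widest range; clone and predicted-gene names were passed over. Others (Mrc1, Olr1, Irf4, Maf) were named after their values were seen. Alternatives were other level filters, rules of 1.3-fold and 2-fold, a second quantile normalization, median centring, loess (span 0.3), the mean over probe sets and a limma prior following the level. Those on the change of the genotype difference were added after seeing the data.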

Additional observations from a re-analysis of the deposited data

Results flagged for a closer look

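For 6 of the 10 lectins the genotype difference had opposite signs at 12 h and 24 h, each on 1 array per group, so the difference between the times was not tested. Clec4a1 went from 0.12 to -1.37, a change of -1.50, the single one of the 6 past 1.5-fold at either time. The changes of the others were -0.60 for Clec4a2, -0.33 for Clec4b1, -0.19 for Clec4d, 0.10 for Clec7a and 0.20 for Clec5a. These lay inside the central 95% of genes, -0.78 to 0.74. The share of all genes with opposite signs was not counted. Differences near 0 can take either sign, so the count of 6 is a description only.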

How the results depend on the processing

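No lectin difference past 1.5-fold changed sign under the alternatives run. With a rule of 1.3-fold, 1 lectin (Clec4n) was lower in knockout at 12 h, against 4.88% of genes. With a rule of 2-fold, 1 lectin (Clec4a1) was lower in knockout at 24 h (0.421% of genes), and 3 lectins were higher at 24 h in knockout cells (0.503%). The filter at the 60th percentile (4.37) left out Clec4b1 and Clec4n, and 3 lectins were then higher at 24 h in wild type (3.69% of genes). Under that filter 3 lectins lay below the central 95% for the change of the genotype difference (2.5% of genes by construction). For time in limma, 1 lectin (Clec4a3, adjusted p 0.035) passed under that filter, and 6 with the prior following the level; the lowest adjusted p among the lectins was 0.0598 after quantile normalization and 0.172 with no filter. For genotype, 0 passed in limma under any setting, with lowest adjusted p from 0.527 to 0.866. The other 72 alternative counts stayed within 1.5 times. Most of these were counts of 0 that stayed 0, which says little about how stable the larger counts were. The labels give no replicate numbers to pair by; the limma fit already compares the genotypes within each time.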
